A study of Drosophila melanogaster with 9 samples.

Results

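RNA from the Malpighian tubules of Drosophila melanogaster, the fly's renal organ, was compared between flies that carried both a yki3SA tumour and knockdown of ITP and flies with neither, to describe which tubule transcripts differ from healthy control when a tumour is present and ITP is knocked down. The comparison uses 6 of the 9 libraries of the series, 3 per genotype, taken by their genotype labels, and covers all genes. The knockdown group, called ITP-i, carried UAS-Yki-3SA and UAS-ITP-i under esg-Gal4, with tub-Gal80ts and UAS-GFP. The control group had the same driver, repressor and UAS-GFP over a wild-type chromosome. The other 3 libraries, called yki3SA, carried UAS-Yki-3SA without UAS-ITP-i. They enter the shared estimate of the spread, and their levels are given for orientation. All flies were virgin progeny kept for 6 to 8 days at 18 °C, and moved to 29 °C for another 8 days, a shift that releases Gal4 from its temperature-sensitive repressor Gal80ts. The driver esg-Gal4 acts in gut progenitors, and the tubules' own stem cells use it too. RNA was taken from 80 tubules of each genotype and enriched for poly-A transcripts. The labels do not say whether libraries came from separate cultures or dissections, so p-values measure only the spread between these libraries. Control flies lack both UAS transgenes and no group carried a neutral RNAi transgene. By their titles the control and yki3SA libraries are re-analysed ones, which ITP-i titles do not say, so this difference and the ITP-i genotype cannot be told apart in either contrast.

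Malpighian tubules clear ions, water and waste from the hemolymph. Principal cells drive secretion with a vacuolar H+-ATPase and take up organic solutes, and stellate cells pass chloride and water. Peptide hormones tune the rate, and ion transport peptide (ITP) acts as an antidiuretic signal in the fly. The tubule is also a site of detoxification, through cytochrome P450s and conjugating enzymes, and of innate immunity, where the IMD pathway induces antimicrobial peptides within the tissue itself. Yki3SA is a form of the Hippo pathway effector Yorkie that escapes inhibition, and in gut progenitors it drives tumour growth.

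Total counts were 40962290 to 41978250 in the ITP-i libraries and 36088638 to 45728599 in the control libraries. On the first principal component, which held 36.6% of the variance, the ITP-i libraries lay at -9.90 to -1.15, yki3SA libraries at -57.6 to -48.2 and control libraries at 51.3 to 61.3. On the second component, with 23.8%, ITP-i lay at -55.8 to -47.3, yki3SA at 19.1 to 35.1 and control at 18.9 to 28.6, so this component set the ITP-i libraries apart from both other groups. Markers of principal cells (16 genes) summed to 12590 to 15290 counts per 1000000 counts, scaled by TMM (CPM), in ITP-i and 15770 to 20290 CPM in control, and those of stellate cells (8 genes) to 1149 to 1225 CPM in ITP-i and 1475 to 1644 CPM in control, so transcripts of both tubule cell types were present. Markers of neighbouring organs were present in both groups. The sums were 2268 to 4176 CPM in ITP-i and 2681 to 6088 CPM in control for 16 fat body genes. For 46 gut enterocyte genes they were 272.5 to 624 CPM in ITP-i and 599.5 to 1562 CPM in control. For 30 ovary and early embryo genes they were 113 to 309 CPM in ITP-i and 232.5 to 456 CPM in control. The groups overlap in the fat body, gut and ovary sums and are separate in the principal and stellate cell sums. Every fat body and gut marker had counts, and among the ovary markers BicC was at 0 in all 6 libraries. In bulk tissue, fewer cells of a type and less RNA per cell cannot be told apart.

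ITP (FBgn0035023), the target of the knockdown, stood at 51.7, 63.7 and 60.4 CPM in the ITP-i libraries and at 32.7, 33.5 and 44.7 CPM in the control libraries. All 3 ITP-i libraries lay above all 3 control libraries, so the transcript was not lower in tubules of knockdown flies. The log2 fold change was 0.67 (SE 0.16) with an adjusted p of 0.027 in edgeR's quasi-likelihood test with Benjamini-Hochberg adjustment. The call was lost on leaving out control library 1, control library 2, ITP-i library 2 or ITP-i library 3 (log2 0.57, 0.59, 0.59 and 0.65, adjusted p = 0.1, 0.087, 0.098 and 0.064). ITP was at 56.9, 77.0 and 71.2 CPM in yki3SA tubules. The knockdown acts where esg-Gal4 does, and whole-tubule RNA does not show what those cells alone contain. The gene yki itself did not pass the test, at 84.6, 81.4 and 67.6 CPM in ITP-i and 78.1, 63.0 and 78.8 CPM in control (log2 0.09, adjusted p = 0.75).

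NKCC, a sodium-potassium-chloride cotransporter, was at 42.6, 45.5 and 44.2 CPM in ITP-i and 28.7, 24.2 and 32.5 CPM in control. The ITP-i libraries lay above the control libraries, with a log2 fold change of 0.63 (SE 0.14, adjusted p = 0.019). That call was lost on leaving out control library 1, control library 2, ITP-i library 1 or ITP-i library 2 (adjusted p = 0.064, 0.062, 0.057 and 0.071). In yki3SA tubules NKCC stood at 287, 371 and 288 CPM, above both other groups, and ITP-i was lower than yki3SA (log2 -2.84, adjusted p = 1.4e-05).

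Of 10253 genes tested, 1077 (10.5%) differed between ITP-i and control, 653 higher (6.37%) and 424 lower (4.14%). A fold of at least 2 was reached by 461 of the higher genes (4.5% of those tested) and 198 of the lower ones (1.93%). The median log2 fold change was 1.63 among genes called higher and -0.94 among those called lower. Rises thus outnumbered falls, with 60.6% of called genes higher, and this share was 71.9% with total-count scaling (844 higher and 330 lower). For comparison on the same scale, 3091 genes (30.1%) were called in yki3SA against control, which shares the control libraries, 16.2% higher and 14% lower. Between ITP-i and yki3SA 2126 genes (20.7%) were called. The libraries of ITP-i and control did not overlap for 3149 genes (30.7%), which is the background wherever groups are called separate.

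**Figure D1:**
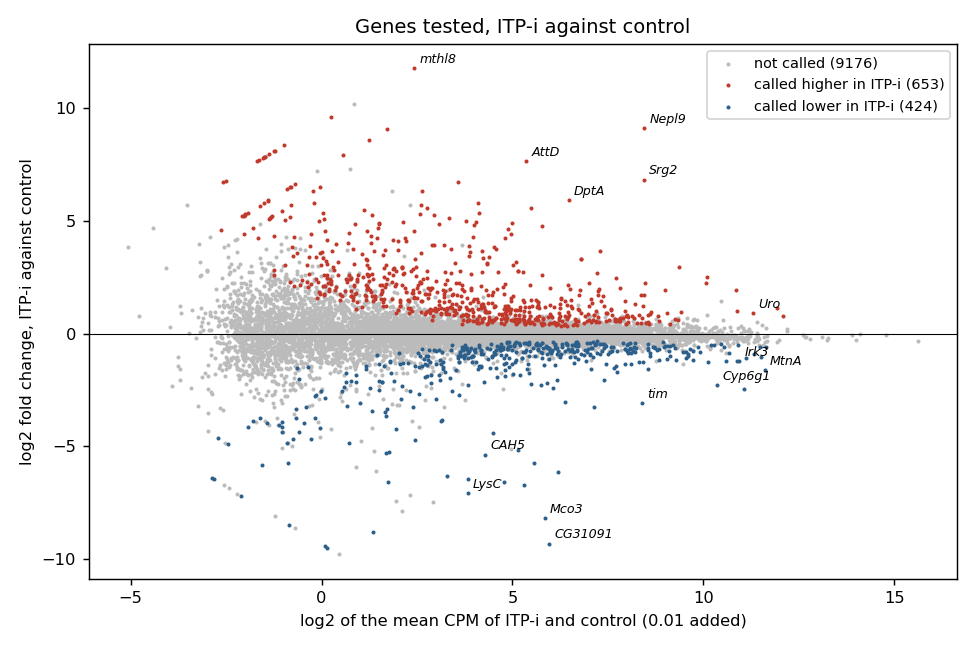
Log2 fold change of ITP-i against control (vertical axis) against the log2 of the mean CPM of both groups (horizontal axis), one point per gene tested. Red points are the 653 genes called higher and blue points the 424 called lower in ITP-i. Nepl9, AttD and Srg2 stand out at high level, and CG31091 and Mco3 lie lowest among the genes labelled.

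Ranking by fold change was limited to calls whose groups were separate and whose higher group averaged 10 CPM or more. Within this limit, the 10 largest fitted rises were those of mthl8, Nepl9, AttD, Srg2, Dro, CG42816, DptA, Erasp, CG7886 and CG44098. mthl8, which encodes a G protein-coupled receptor of the methuselah family, had 9.73, 10.2 and 12.0 CPM in ITP-i and no count in any control or yki3SA library. Against 3 counts in the smallest control library, a limit that covers counting error only, it was at least 118-fold higher, and its fitted value gives it no rank against genes counted in control. Nepl9 (FBgn0032613), a neprilysin-like peptidase gene, had 909, 518 and 656 CPM in ITP-i and 1.17, 0.456 and 2.14 CPM in control. Every ITP-i library lay far above every control library, with a log2 fold change of 9.13 (SE 0.64, adjusted p = 3.2e-05). In yki3SA tubules Nepl9 was at 215, 93.6 and 86.4 CPM, and ITP-i was higher than yki3SA as well (log2 2.40, adjusted p = 0.0067). The receptor gene TkR86C, of the tachykinin receptor family, was at 17.4, 20.01 and 21.1 CPM in ITP-i and 0.672, 0.215 and 0.784 CPM in control (log2 5.13, adjusted p = 0.0014). The synaptotagmin gene Syt4, of vesicle fusion, was at 28.4, 26.5 and 24.5 CPM in ITP-i and 0.298, 1.53 and 0.633 CPM in control (log2 5.01, adjusted p = 8.7e-05). The groups were separate for both genes. Ccn, of the connective tissue growth factor family, rose (log2 5.31, adjusted p = 2.8e-05), as did nesd, which acts in cytokinesis (log2 4.83, adjusted p = 6.9e-05), and ppk6, of the pickpocket sodium channel family (log2 4.85, adjusted p = 0.001).

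These rises differed in where yki3SA stood. Syt4 was at 27.2, 29.7 and 28.5 CPM in yki3SA, and ITP-i and yki3SA were not separated by the test (log2 -0.10, SE 0.34, adjusted p = 0.86). The uncharacterised gene CG44098 showed the same order of groups, with 13.6, 14.3 and 11.6 CPM in the ITP-i libraries, 18.2, 19.9 and 19.2 CPM in the yki3SA ones and 0.0498, 0.644 and 0.121 CPM in control. In nesd and ppk6 the yki3SA libraries stayed low. nesd was at 27.2, 31.9 and 32.5 CPM in the ITP-i libraries, 2.86, 1.79 and 4.35 CPM in the yki3SA ones and 0.672, 1.61 and 0.934 CPM in control (ITP-i against yki3SA, log2 3.34, adjusted p = 0.00037). ppk6 was at 15.3, 10.4 and 23.4 CPM in the ITP-i libraries, 1.36, 0.895 and 0.285 CPM in the yki3SA ones and 0.448, 0.295 and 0.965 CPM in control (ITP-i against yki3SA, log2 4.29, adjusted p = 0.0016). Thus some rises of ITP-i over control were of a size that yki3SA tubules also had, and others were higher in ITP-i than in either group.

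Among the most abundant genes that rose, CG33258 was at 6092, 4764 and 5234 CPM in ITP-i and 2485, 2511 and 2250 CPM in control (log2 1.15, adjusted p = 0.00048). Ag5r, of the antigen 5 family of secreted proteins, was at 2008, 1663 and 1956 CPM in ITP-i and 243, 386 and 343 CPM in control (log2 2.53, adjusted p = 4.7e-05). CG5399 was at 3124, 2786 and 2888 CPM in ITP-i and 595, 1157 and 555 CPM in control (log2 1.93, adjusted p = 0.00097). The 3 genes were each separate between the groups, and all also rose in yki3SA against the same control libraries (adjusted p = 0.0014, 3.6e-05 and 0.00013).

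**Figure D2:**
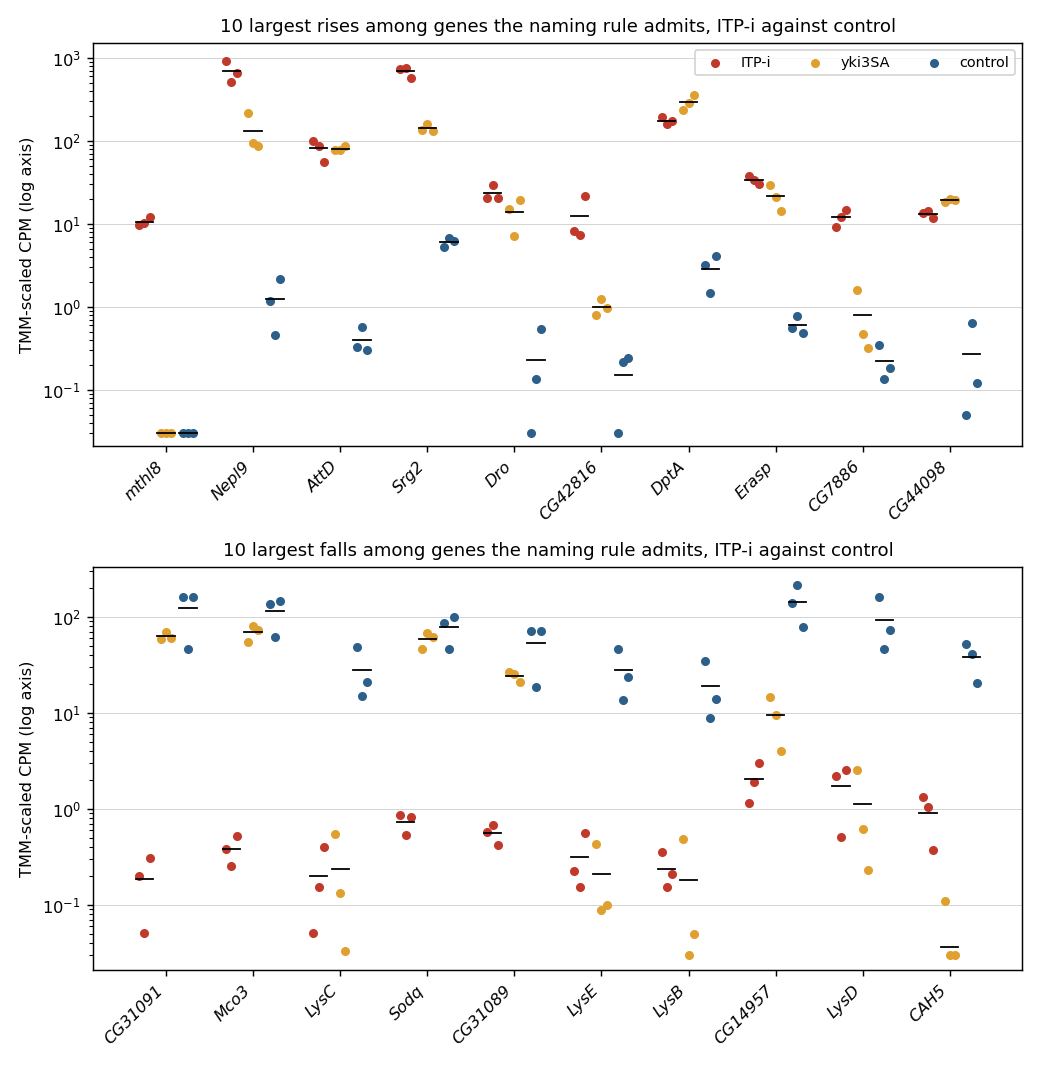
TMM-scaled CPM on a log axis for the 10 genes with the largest fitted rise (top) and fall (bottom) under the naming rule, by library. mthl8, with no count in control, is placed by its fitted value. Points are libraries of ITP-i, yki3SA and control from left to right, bars are group means, and points at the lower edge are at or near 0. The yki3SA libraries lie near ITP-i for AttD and the lysozymes, near control for Sodq and Mco3, and in between for Srg2.

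Within the same limit of level and separation, the 10 largest fitted falls were those of CG31091, Mco3, LysC, Sodq, CG31089, LysE, LysB, CG14957, LysD and CAH5. The uncharacterised gene CG14957 was at 1.17, 1.91 and 3.02 CPM in ITP-i and 139, 213 and 78.9 CPM in control (log2 -6.13, adjusted p = 0.00019). The lysozyme genes LysB, LysD and LysE, known from the gut, and LysC, annotated as a pseudogene of that family, dropped to near 0. LysD was at 2.23, 0.510 and 2.52 CPM in ITP-i and 161, 46.7 and 72.8 CPM in control (log2 -5.73, adjusted p = 0.0022). Control libraries spread over a wide range but all lay far above the ITP-i libraries. In yki3SA LysD was at 2.54, 0.627 and 0.234 CPM. The lysozyme genes are near-identical copies whose reads are hard to assign to 1 member. LysX went the other way, higher in ITP-i at 38.4, 27.5 and 41.6 CPM, against 3.93, 5.74 and 2.68 CPM in control (log2 3.12, adjusted p = 0.00024). It was at 4.28, 5.82 and 3.28 CPM in yki3SA, so ITP-i stood above both groups. Of 42 gut enterocyte markers tested, 9 were lower and 2 higher (17 and 2 with limma-voom), with a median log2 fold change of -1.43. The edgeR shares were 21.4% and 4.76%, where 4.14% and 6.37% of all genes were called. That list holds these lysozymes, and their fall is read beside the summed gut marker level given above. With the summed gut marker level, here scaled by total counts, as a covariate in the fit, 5 markers were lower and 4 higher. LysB, LysC, LysD, LysE and LysX were still called. That covariate is built from these same genes, so the fit cannot decide whether their changes follow the gut marker level. LysS, a lysozyme gene at 0.0253, 0 and 0.0236 CPM in ITP-i and 1.69, 0.483 and 0.995 CPM in control, was lower (log2 -5.77, adjusted p = 0.0097) and lost its call with that covariate (adjusted p = 0.098). CAH5, a carbonic anhydrase, was at 1.32, 1.05 and 0.377 CPM in ITP-i and 52.7, 40.7 and 20.5 CPM in control, and was at 0.109, 0 and 0 CPM in yki3SA. The test gave log2 -5.38 (adjusted p = 0.00039).

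Immune effector genes were higher in ITP-i tubules. Of 34 antimicrobial and induced immune peptide genes tested (of 40 in the table), 14 rose and 1 fell, which is 41.2% higher where 6.37% of all genes were, with a median log2 fold change of 1.37. The 14 were AttA, AttB, AttC, AttD, CecC, Def, DptA, DptB, Dro, Mtk, BomS2, BomS3, Dso1 and IBIN, some of them outside the naming rule and named after their values were seen. The attacin gene AttD was at 101, 87.6 and 56.1 CPM in ITP-i and 0.323, 0.564 and 0.301 CPM in control (log2 7.67, SE 0.31, adjusted p = 1.6e-06). The diptericin gene DptA was at 191, 159 and 174 CPM in ITP-i and 3.16, 1.45 and 4.04 CPM in control (log2 5.93, SE 0.34, adjusted p = 9.4e-06). Both are targets of the IMD pathway, and their ITP-i libraries lay far above all control libraries. Drosocin (Dro) was at 20.4, 29.1 and 20.7 CPM in ITP-i and 0, 0.134 and 0.542 CPM in control (log2 6.75, adjusted p = 0.00041), and metchnikowin (Mtk), an antifungal peptide, at 19.3, 12.1 and 9.97 CPM in ITP-i and 0.746, 0.751 and 1.21 CPM in control (log2 3.94, adjusted p = 0.00018). Some pairs of these genes, such as AttA and AttB, are close copies, and their counts are uncertain. The count was 11 to 14 when any 1 library was left out. The call for CecC was lost on leaving out control library 1, control library 3, ITP-i library 1 or ITP-i library 2 (adjusted p up to 0.1). That for Def was lost without control library 1, ITP-i library 1 or ITP-i library 2 (adjusted p up to 0.094), and that for BomS2 without control library 3 or ITP-i library 1 (adjusted p up to 0.072). The fall was that of BomBc2, a bomanin-type peptide gene at 8.57, 7.99 and 6.43 CPM in ITP-i and 18.9, 12.8 and 16.6 CPM in control (log2 -1.07, adjusted p = 0.019), which was lost on leaving out any library except control library 2 (adjusted p up to 0.073).

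In yki3SA tubules the same list held 12 rises and 3 falls against the same control libraries, where 16.2% of all genes rose and 14% fell. ITP-i against yki3SA missed the threshold for AttD and DptA, with log2 fold changes of 0.02 and -0.74 (SE 0.21 and 0.27, adjusted p = 0.96 and 0.082). The DptA libraries did not overlap, since yki3SA stood at 233, 289 and 352 CPM, above all 3 ITP-i libraries. The bomanin gene BomS3 and the daisho gene Dso1, known targets of the Toll pathway and both outside the naming rule, were higher in ITP-i than in yki3SA. BomS3 was at 18.4, 16.8 and 14.4 CPM in the ITP-i libraries, 7.04, 6.96 and 8.30 CPM in the yki3SA ones and 5.90, 7.30 and 6.57 CPM in control, with ITP-i above both (adjusted p = 0.0015 against yki3SA and 0.00074 against control). Dso1 was at 9.17, 6.87 and 7.87 CPM in the ITP-i libraries, 1.66, 2.44 and 2.34 CPM in the yki3SA ones and 2.51, 2.07 and 3.50 CPM in control (adjusted p = 0.0019 against yki3SA and 0.0056 against control). For both genes the difference of yki3SA from control did not pass the test (adjusted p = 0.46 and 0.42).

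**Figure D3:**
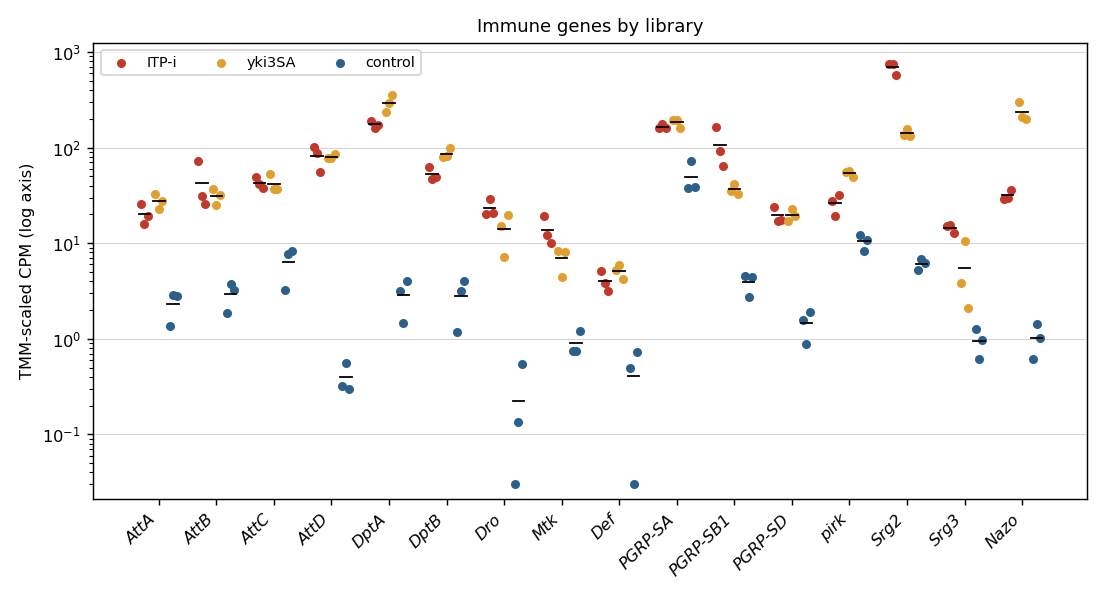
TMM-scaled CPM on a log axis for 16 immune genes, by library, with ITP-i, yki3SA and control from left to right and bars at the group means. The 16 genes were picked for display after their values were seen, and each has its 3 ITP-i libraries above its 3 control libraries.

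Of 43 genes of the IMD and Toll pathways, 7 rose (16.3%) and 1 fell (2.33%), where 6.37% and 4.14% of all genes did. The median log2 fold change was 0.13. The recognition protein gene PGRP-SD was at 24.1, 17.1 and 17.3 CPM in ITP-i and 1.57, 0.885 and 1.90 CPM in control (log2 3.75, SE 0.28, adjusted p = 4.7e-05). PGRP-SB1, whose product degrades peptidoglycan, was at 163, 91.2 and 63.9 CPM in ITP-i and 4.58, 2.76 and 4.4 CPM in control (log2 4.76, adjusted p = 4.7e-05). Its ITP-i libraries also lay above yki3SA at 35.5, 41.99 and 32.9 CPM (adjusted p = 0.009). The Toll receptor-side gene PGRP-SA was at 159.7, 177 and 160.1 CPM in ITP-i and 37.8, 72.5 and 38.8 CPM in control (log2 1.74, adjusted p = 0.0012), a gene outside the naming rule chosen after its values were seen. The inhibitor pirk was higher too, at 27.4, 19.0 and 31.9 CPM in ITP-i against 12.2, 8.21 and 10.9 CPM in control, but stood below yki3SA at 55.1, 56.9 and 49.6 CPM (adjusted p = 0.0068). The fall of PGRP-SC1b rests on levels under 1 CPM and was lost on leaving out any library except control library 2 (adjusted p up to 0.1). The count of rises ranged from 5 to 6 when 1 library was left out.

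Srg2, Srg3 and Nazo, genes that respond to the cyclic dinucleotide sensor Sting, rose, 3 of 8 genes of that group (37.5%, against 6.37% of all genes). Srg2 was at 744, 753 and 567 CPM in ITP-i and 5.20, 6.82 and 6.15 CPM in control (log2 6.83, SE 0.19, adjusted p = 1.2e-07), the smallest p of the comparison. The yki3SA libraries read 134, 158 and 131 CPM, and ITP-i was higher than yki3SA by log2 2.29 (adjusted p = 3.8e-05). Nazo ran in the other order, at 29.3, 29.9 and 35.9 CPM in the ITP-i libraries, 302, 208 and 198 CPM in the yki3SA ones and 0.622, 1.42 and 1.02 CPM in control. It rose in ITP-i against control (log2 4.96, adjusted p = 9.2e-06) and was lower than in yki3SA (log2 -2.89, adjusted p = 9.5e-05). Srg3, which also fell outside the naming rule, was at 15.2, 15.4 and 12.8 CPM in ITP-i and 1.27, 0.617 and 0.965 CPM in control (log2 3.92, adjusted p = 0.0018). The transcript of Sting itself was not called, at 27.0, 23.1 and 34.2 CPM in ITP-i and 30.1, 35.9 and 35.6 CPM in control. All 3 rises held when any library was left out.

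Genes of detoxification went down more often than up. Of 77 cytochrome P450 genes, 16 fell and 6 rose, 20.8% lower where 4.14% of all genes were (25 and 8 with DESeq2). The median log2 fold change of the list was -0.29. Cyp6g1, known from insecticide resistance, was at 429, 388 and 522 CPM in ITP-i and 2547, 2652 and 1340 CPM in control (log2 -2.29, SE 0.27, adjusted p = 0.0005). It was at 57.6, 86.1 and 70.5 CPM in yki3SA, and ITP-i lay between the other groups. Cyp12a5 and Cyp6a9 showed smaller falls with little spread. Cyp12a5 was at 22.7, 26.4 and 23.0 CPM in ITP-i and 67.2, 64.0 and 52.9 CPM in control (log2 -1.35, adjusted p = 0.00018), and Cyp6a9 at 66.8, 69.0 and 61.1 CPM in ITP-i and 168, 133 and 134 CPM in control (log2 -1.14, adjusted p = 0.00026). Other P450 genes rose. Cyp6a14 was at 213, 222 and 199.8 CPM in ITP-i and 38.2, 55.8 and 39.2 CPM in control (log2 2.25, adjusted p = 0.00011). Cyp4p3 followed at 868, 856 and 703 CPM in ITP-i and 267, 208 and 157 CPM in control (log2 1.94, adjusted p = 0.00025). The lower count was 14 to 18 with any library left out, and 15 or 14 with fat body or gut marker levels added as a covariate. In yki3SA the same list held 25 falls and 6 rises against the shared control, where 14% of all genes fell and 16.2% rose.

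Of 61 UDP-glycosyltransferase and glutathione S-transferase genes, which conjugate toxins for excretion, 11 fell (18%) and 3 rose (4.92%). The shares over all genes were 4.14% and 6.37%, and the median log2 fold change of the list was -0.22. The UDP-glycosyltransferase gene Ugt37B1 was at 8.49, 11.4 and 10.7 CPM in ITP-i and 32.7, 30.5 and 51.5 CPM in control (log2 -1.91, adjusted p = 0.0015). It was lower still in yki3SA, at 0.873, 1.25 and 0.619 CPM (ITP-i against yki3SA, adjusted p = 0.00011). Ugt37D1 was at 18.4, 20.6 and 22.9 CPM in ITP-i and 53.4, 45.9 and 42.3 CPM in control (log2 -1.19, adjusted p = 0.0015). Ugt302C1 was the member that held as a rise with every library left out, at 61.4, 75.9 and 52.8 CPM in ITP-i and 36.8, 26.6 and 18.4 CPM in control (log2 1.21, adjusted p = 0.01). Once gut marker level entered as a covariate, 6 genes were lower and 0 higher.

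Of 44 ion and water transport genes, 2 rose and 3 fell, 4.55% and 6.82%, near the shares of 6.37% and 4.14% over all genes. Irk3, an inward rectifier potassium channel of principal cells, was at 1283, 1050 and 1175 CPM in ITP-i and 2943, 2683 and 2636 CPM in control (log2 -1.24, SE 0.12, adjusted p = 0.00018). Its groups were widely separate, and yki3SA was near ITP-i at 963, 1061 and 934 CPM (ITP-i against yki3SA, log2 0.25, adjusted p = 0.16). Of 37 organic solute carriers, 5 rose and 5 fell (13.5% each). The transporter gene st, of tryptophan-derived pigment precursors, was at 632, 609.6 and 631 CPM in ITP-i and 1198, 1015 and 957 CPM in control (log2 -0.76, adjusted p = 0.0033). CarT, which carries carcinine, was at 6.34, 5.54 and 7.66 CPM in ITP-i and 0.597, 1.26 and 0.723 CPM in control (log2 2.92, adjusted p = 0.00062), and was at 1.15, 1.36 and 1.59 CPM in yki3SA (ITP-i against yki3SA, adjusted p = 0.002). The trehalose transporter gene Tret1-2, named after its values were seen, was at 21.5, 21.6 and 37.4 CPM in ITP-i and 1.77, 3.30 and 2.23 CPM in control (log2 3.46, adjusted p = 0.00099). With any 1 library left out 3 to 5 of the carriers rose and 2 to 7 fell.

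Of 25 V-ATPase genes 2 rose (8%) and 3 fell (12%), where 6.37% and 4.14% of all genes did. The 3 falls were called in none of the fits that left out a library. Vha68-3, an alternative copy of the catalytic subunit, was at 4.13, 4.29 and 5.47 CPM in ITP-i and 0.323, 0.161 and 0.181 CPM in control (log2 4.36, adjusted p = 0.00042). Of 29 diuretic hormone genes 3 rose (10.3%) and 2 fell (6.9%). The rises were those of ITP, TkR86C and the adenylate cyclase Ac76E. The call for Ac76E was lost without control library 3, ITP-i library 1 or ITP-i library 2 (adjusted p up to 0.094). Dh44-R2, a receptor for the diuretic hormone DH44, was at 42.4, 50.8 and 48.9 CPM in ITP-i and 69.6, 74.2 and 68.4 CPM in control (log2 -0.58, adjusted p = 0.0077). Its yki3SA libraries read 66.6, 78.4 and 74.5 CPM, at the level of control. Of 16 principal cell markers 1 rose (6.25%) and 4 fell (25%). The rise was that of the urate oxidase gene Uro, at 3474, 3764 and 2662 CPM in ITP-i and 1863, 1866 and 1525 CPM in control (log2 0.91, adjusted p = 0.031). Its call was lost on leaving out any library except ITP-i library 3 (adjusted p up to 0.12). The falls were those of Irk3, st, Dh44-R2 and Alp4, the last lost without control library 1, ITP-i library 1 or ITP-i library 2 (adjusted p up to 0.072). Of 8 stellate cell markers 1 fell (12.5%), that of Prip. Its call was lost on leaving out any library except ITP-i library 3 (adjusted p up to 0.14) and with total-count scaling (adjusted p = 0.16). Sox100B, a marker of renal stem cells, was called higher at 8.62, 7.88 and 4.71 CPM in ITP-i and 2.36, 2.31 and 2.86 CPM in control (log2 1.49, adjusted p = 0.028). That call was lost on leaving out any library except ITP-i library 3 (adjusted p up to 0.1), and the other 5 stem cell markers were not called.

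**Figure D4:**
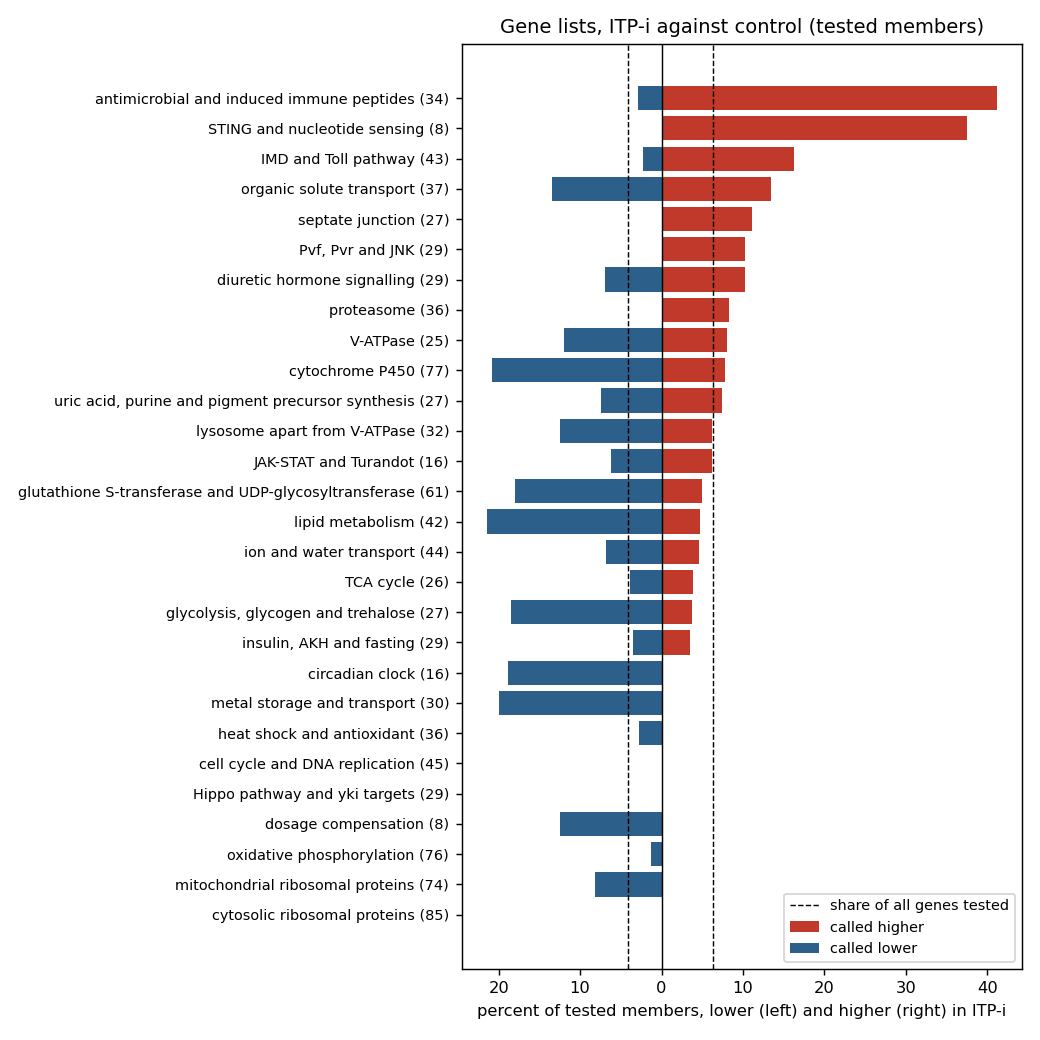
Percent of tested members of 28 gene lists called higher (red, to the right) and lower (blue, to the left) in ITP-i against control, with the number of tested members in brackets. Dashed lines mark the shares over all genes tested, 6.37% higher and 4.14% lower, and the immune peptide list reaches 41.2% higher while P450 and lipid genes reach 20.8% and 21.4% lower.

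Metal handling and lipid metabolism lists held more falls than rises. Of 30 metal storage and transport genes 6 fell (20%, against 4.14% of all genes) and 0 rose in edgeR. Among the 6 was Mco3, which lies in the run of adjacent genes on chromosome 3R described below. There were 3 falls without ITP-i library 1, 4 to 6 with each other library left out and 2 once gut marker level entered as a covariate. For rises, 3 were higher at an unadjusted p under 0.05 (1 with DESeq2, 0 with limma-voom). Zip88E, a zinc transporter, was at 74.4, 80.6 and 75.0 CPM in ITP-i and 182, 125 and 127 CPM in control (log2 -0.92, adjusted p = 0.0031). ZnT86D, another zinc transporter, was at 76.8, 74.4 and 80.4 CPM in ITP-i and 114, 112 and 104 CPM in control (log2 -0.51, adjusted p = 0.0053). The metallothionein gene MtnA was at 1239, 1146 and 2161 CPM in ITP-i and 5124, 5953 and 3050 CPM in control (log2 -1.64, adjusted p = 0.014). That call was lost without ITP-i library 1 or ITP-i library 2 (log2 -1.51 and -1.48, adjusted p = 0.064 and 0.062). Of 42 lipid metabolism genes 9 fell and 2 rose, 3 to 7 and 1 to 3 with a library left out and 1 and 1 once gut marker level entered as a covariate. FASN1, the fatty acid synthase, was at 248, 135 and 223 CPM in ITP-i and 464, 476 and 518 CPM in control (log2 -1.27, adjusted p = 0.013), named after its values were seen. NLaz, an apolipoprotein D-like lipocalin, rose, with 508, 494 and 504 CPM in ITP-i and 274, 297 and 244 CPM in control (log2 0.89, adjusted p = 0.0025), and stood below yki3SA at 1030, 924 and 752 CPM (adjusted p = 0.0028). UGP, which makes UDP-glucose, was at 478, 557 and 402 CPM in ITP-i and 1063, 772 and 1169 CPM in control (log2 -1.06, adjusted p = 0.009), among 5 falls and 1 rise of 27 genes of glycolysis, glycogen and trehalose. Between 1 and 5 of the 27 were lower with a library left out, and 0 once gut marker level entered as a covariate.

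Few genes of energy metabolism and translation were called. Of 76 oxidative phosphorylation genes 1 fell and 0 rose in edgeR, with 7 lower and 0 higher at an unadjusted p under 0.05, 2 lower with DESeq2 and 1 with limma-voom. The fall, that of ND-18, was lost on leaving out any library (adjusted p up to 0.089). The median of the list was -0.14. In yki3SA tubules 54 of these genes were lower against the same control libraries, with a median of -0.53. The yki3SA contrast called 14% of all genes lower and 16.2% higher, the background for each yki3SA count given here. Of 26 TCA cycle genes 1 rose and 1 fell, where 18 fell in yki3SA. The fall in ITP-i, that of Ogdh, was lost on leaving out any library except control library 2 (adjusted p up to 0.078). Of 85 cytosolic ribosomal protein genes 0 were called in edgeR, with 2 lower at an unadjusted p under 0.05, 1 lower with DESeq2 and 0 with limma-voom, and 75 fell in yki3SA. The 85 genes spanned -0.35 to 0.04 in ITP-i. Misses of the threshold do not show equal levels, and the medians moved to -0.05 for oxidative phosphorylation and -0.04 for ribosomal proteins with total-count scaling. Pepck2, of phosphoenolpyruvate synthesis, was the TCA list member that rose, at 46.8, 51.9 and 16.1 CPM in ITP-i and 3.16, 4.16 and 3.41 CPM in control (log2 3.42, adjusted p = 0.00074). It was at 13.3, 9.76 and 7.11 CPM in yki3SA, below ITP-i (adjusted p = 0.0091). Of 74 mitochondrial ribosomal protein genes 6 fell (8.11%, against 4.14% of all genes), with mRpS31 at 19.8, 18.2 and 20.7 CPM in ITP-i and 34.0, 28.8 and 29.4 CPM in control (log2 -0.65, adjusted p = 0.0078). That count was 2 without ITP-i library 1 or ITP-i library 2, 3 without control library 1, and 4 or 5 with each of the others left out. It was 2 with total-count scaling and 0 once gut marker level entered as a covariate, where mRpS31 had an adjusted p of 0.088. Of 36 proteasome genes 3 rose (8.33%, against 6.37% of all genes), with a median of 0.32, and 31 rose in yki3SA. The log2 fold changes of the 36 in ITP-i spanned 0.1 to 0.49, with 20 higher and 0 lower at an unadjusted p under 0.05. The count of 3 rises depends on the scaling, being 18 with total counts. It was 0 without any 1 library other than control library 1, where it was 6.

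The growth lists held no edgeR call when all libraries were used. For 29 Hippo pathway genes and yki targets, and for 45 cell cycle and DNA replication genes, edgeR, DESeq2 and limma-voom each called 0. At an unadjusted p under 0.05 the first list had 2 higher and 2 lower, and the second 1 higher and 0 lower. Of the Hippo list, 2 genes were called higher without ITP-i library 3 and 1 with total-count scaling. The cell cycle list summed to 516, 417 and 840.2 CPM in the ITP-i libraries and 522, 483 and 491 CPM in the control libraries. ITP-i library 3 stood apart at the top, and it was also the highest ITP-i library for the sum of ovary markers, at 309 CPM against 247 and 113 CPM. Of 16 clock genes 3 fell (tim, vri and Pdp1), which is 18.8% where 4.14% of all genes fell. In edgeR 0 rose, with 0 higher at an unadjusted p under 0.05 and by the other tools. The clock gene timeless (tim) was at 73.5, 88.1 and 50.1 CPM in ITP-i and 465, 609 and 721 CPM in control (log2 -3.08, SE 0.23, adjusted p = 4.7e-05). Its yki3SA libraries read 387, 387 and 330.1 CPM, and ITP-i was lower than yki3SA by log2 -2.38 (adjusted p = 0.00019). The call held with every library left out, while that for vri was lost without control library 2, control library 3, ITP-i library 1 or ITP-i library 3 (adjusted p up to 0.09). That for Pdp1 was lost without control library 3, ITP-i library 1 or ITP-i library 2 (adjusted p up to 0.11). The time of day of dissection is not given in the labels.

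Signalling genes showed single rises and falls. upd2, a cytokine of the JAK-STAT pathway, was at 0.557, 0.536 and 0.306 CPM in ITP-i and 4.11, 7.62 and 6.03 CPM in control (log2 -3.66, adjusted p = 0.00034). rho, a protease that releases EGF ligands, was at 3.45, 4.18 and 4.55 CPM in ITP-i and 0.423, 1.02 and 0.573 CPM in control (log2 2.59, adjusted p = 0.0015). Both were separate between groups, at low levels. The septate junction gene Nrg was at 42.5, 48.7 and 35.6 CPM in ITP-i and 21.9, 20.1 and 17.6 CPM in control (log2 1.09, adjusted p = 0.0089). The transcription factor gene srp, listed as a hemocyte marker, was at 16.8, 18.4 and 14.8 CPM in ITP-i and 45.4, 30.1 and 46.4 CPM in control (log2 -1.28, adjusted p = 0.0017), while the other 13 hemocyte markers were not called by edgeR. DESeq2 called 2 of the 14 higher and 3 lower, and limma-voom 0 and 3. Without control library 2 edgeR called 1 higher and 3 lower, and without ITP-i library 1 it called 3 lower. The summed hemocyte level was 305 to 349.6 CPM in ITP-i and 309 to 345 CPM in control, and He, a hemocyte gene, was at 0 in all 6 libraries. Of 9 enteroendocrine markers 2 rose (22.2%) and 1 fell (11.1%), where 6.37% and 4.14% of all genes did. The rises were those of AstA and CCHa1, and neither was called once gut marker level entered as a covariate. AstA was lost without control library 1, control library 3, ITP-i library 1 or ITP-i library 2 (adjusted p up to 0.1). CCHa1 was lost on leaving out any library except control library 2 (adjusted p up to 0.14). CCHa2, a peptide hormone gene, was at 3.93, 2.48 and 3.23 CPM in ITP-i and 9.73, 8.40 and 16.2 CPM in control (log2 -1.83, adjusted p = 0.0032). The long noncoding RNA roX1, of dosage compensation, was at 4.76, 3.47 and 5.23 CPM in the ITP-i libraries, 37.0, 45.8 and 40.2 CPM in the yki3SA ones and 11.1, 11.8 and 11.2 CPM in control. It was lower in ITP-i than in control (log2 -1.34, adjusted p = 0.00075) and lower than in yki3SA (adjusted p = 1.4e-05).

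For the remaining lists the shares over all genes, 6.37% higher and 4.14% lower, are the background. Of 29 genes of Pvf, Pvr and JNK signalling 3 rose (10.3%), a count of 1 without control library 3. Of 27 septate junction genes 3 rose (11.1%), a count of 1 without control library 3, ITP-i library 1 or ITP-i library 2 and of 0 once gut marker level entered as a covariate. Of 16 JAK-STAT and Turandot genes 1 rose and 1 fell. The rise, that of Socs44A, was lost with limma-voom and on leaving out any library except ITP-i library 3 (adjusted p up to 0.17). Of 32 lysosome genes apart from the V-ATPase 2 rose (6.25%) and 4 fell (12.5%). With a library left out 0 to 3 rose and 0 to 4 fell, with 0 falls without control library 3 or ITP-i library 2, and both counts were 0 once gut marker level entered as a covariate. Of 27 genes of uric acid, purine and pigment precursor synthesis 2 rose and 2 fell. Among 29 genes of insulin, AKH and fasting 1 rose and 1 fell, and 1 fall among 36 heat shock and antioxidant genes. Among markers of other tissues, 2 of 16 fat body genes fell, the odorant-binding protein genes Obp99a and Obp99b, of which Obp99a was lost on leaving out any library except control library 2 (adjusted p up to 0.16) and Obp99b without ITP-i library 2 (adjusted p = 0.054). The yolk protein gene Yp2, named after its values were seen, was not called, at 1234, 687 and 780.4 CPM in ITP-i and 1376, 697 and 1840 CPM in control. For 28 ovary markers and 6 trachea markers edgeR, DESeq2 and limma-voom each called 0, with 0 and 1 higher at an unadjusted p under 0.05. For 22 muscle markers edgeR called 0, with 5 higher at an unadjusted p under 0.05, 2 with DESeq2 and 1 with limma-voom. Among 8 neuron markers nSyb, the neuronal synaptobrevin, fell, at 7.65, 7.53 and 8.77 CPM in ITP-i and 13.6, 18.0 and 16.2 CPM in control (log2 -1.0, adjusted p = 0.0023).

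A run of adjacent genes on chromosome 3R was nearly absent from ITP-i tubules. In the order of the reference annotation, Sodq, Mco3, CG31091, CG31089 and the antisense gene asRNA:CR43259 follow each other, and all 5 fell. Mco3, a multicopper oxidase gene, was at 0.380, 0.255 and 0.518 CPM in ITP-i and 137, 61.0 and 146 CPM in control (log2 -8.20, SE 0.44, adjusted p = 5.6e-06). Sodq, related to the superoxide dismutases, was at 0.862, 0.536 and 0.825 CPM in ITP-i and 86.2, 46.5 and 100.5 CPM in control (log2 -6.71, SE 0.36, adjusted p = 5.6e-06). CG31091 was at 0.203, 0.0510 and 0.306 CPM in ITP-i and 161, 46.8 and 163 CPM in control (log2 -9.33, SE 0.64, adjusted p = 2.8e-05). Control library 2 was the lowest control library in each of the 3 genes, and it still lay far above every ITP-i library. CG31089 showed 0.583, 0.689 and 0.424 CPM in ITP-i and 71.7, 18.7 and 71.8 CPM in control (log2 -6.58, adjusted p = 6.9e-05).

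Mco3, Sodq and CG31091 stood at a high level in yki3SA tubules, with 55.2, 81.1 and 72.2 CPM for Mco3, 46.7, 68.0 and 62.0 CPM for Sodq and 58.3, 69.4 and 60.8 CPM for CG31091. None of Sodq, Mco3, CG31091 and CG31089 was called in yki3SA against control (adjusted p = 0.29, 0.095, 0.094 and 0.058), and these 4 were lower in ITP-i than in yki3SA (adjusted p = 1.4e-05, 1.6e-05, 6.8e-05 and 0.0002). The antisense gene was at 2.81, 1.81 and 1.46 CPM in ITP-i and 55.3, 24.8 and 49.2 CPM in control. At 16.6, 23.9 and 16.5 CPM in yki3SA it was called lower there against control (log2 -1.18, adjusted p = 0.019). Because the strand setting of the counting is not known its reads and those of its partner cannot be told apart. On one side of the run lie CG5913, Lnk and SppL. CG5913, next to Sodq, was called lower at 11.9, 14.9 and 14.8 CPM in ITP-i and 20.4, 17.0 and 25.9 CPM in control (log2 -0.61, adjusted p = 0.05), a call lost on leaving out any library except control library 2 (adjusted p up to 0.18). SppL, a signal peptide peptidase-like gene, was lower in ITP-i at 39.1, 35.8 and 30.3 CPM, against 70.6, 66.1 and 87.1 CPM in control (log2 -1.09, adjusted p = 0.00099), and Lnk, an adaptor of insulin signalling, was not called (log2 -0.36, adjusted p = 0.2). On the other side kumpel was higher, at 6179, 5804 and 4455 CPM in ITP-i and 3481, 2666 and 3393 CPM in control (log2 0.78, adjusted p = 0.014). That call was lost without control library 2, ITP-i library 1 or ITP-i library 2 (adjusted p = 0.055, 0.065 and 0.063). The labels do not give the position of the UAS-ITP-i insertion, and effects of the insertion and of the knockdown cannot be told apart.

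**Figure D5:**
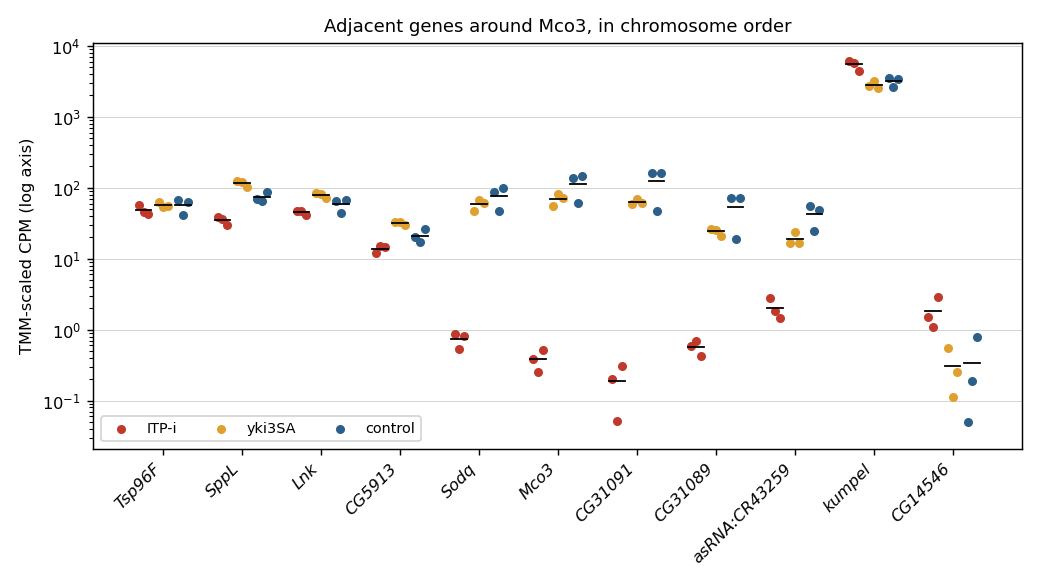
TMM-scaled CPM on a log axis for 11 adjacent tested genes in the order of the reference annotation, by library, with ITP-i, yki3SA and control from left to right and bars at the group means. ITP-i libraries lie under 1 CPM for Sodq, Mco3, CG31091 and CG31089, while yki3SA and control libraries lie at 18.7 CPM or more.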

How the data were processed

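The authors deposited a table of raw read counts per gene, with no normalization, 1 column per library. TopHat, Cufflinks, DESeq and HTSeq are named, without versions or roles, in the submitters' processing notes. For genome build, annotation release and strand setting, the sources used here state nothing. Of 17611 genes, 17552 identifiers matched a symbol and 59 did not. Chromosomes and gene order come from a reference annotation whose build may differ, so no coordinates are given.

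Counts of the 9 libraries were fitted together in R 4.3.3 with edgeR 4.0.16 (filterByExpr, TMM factors, a term for group, 6 residual degrees of freedom, prior count 0.125). The quasi-likelihood F-test was adjusted by Benjamini-Hochberg over 10253 genes, and a gene was called at an adjusted p under 0.05. Levels are CPM scaled with TMM factors, and log2 fold changes are ITP-i minus control. Total counts were 34640437 to 49338340 per library, and 3 counts, the floor used for a group with no count, are 0.0502 to 0.0904 CPM. DESeq2 1.42.0, limma-voom (limma 3.58.1), other scalings and filters, robust = TRUE, the 6 libraries alone, a fold of at least 2, marker levels of fat body, gut or ovary as a covariate, a replicate block and leaving out each library were alternatives.

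Members, the 39 gene lists and tests were chosen with earlier results of these data known. The naming rule took ITP, yki and NKCC, the 10 largest changes and the next 6 with a name in each direction (called, at least 10 CPM in the higher group, groups separate), up to 2 rises and 2 falls per list by p, and the 6 most abundant called genes in each direction. It took 114 genes, and those described were picked from them after their values were seen, mostly calls that held with each library left out. Of the 113 that were called, 70 held in this way. Tables and plots used Python 3.11.15, pandas 2.3.3, numpy 2.4.6 and matplotlib 3.10.9.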

Additional observations from a re-analysis of the deposited data

How the results depend on the processing

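Of the 1077 calls (653 higher, 424 lower), 629 were also called without ITP-i library 1 and 499 with the gut covariate. Rises outnumbered falls in every alternative, and the ITP difference kept its direction in each. Falls numbered 727 with DESeq2 and 278 once fat body marker level entered as a covariate. Gut marker level as a covariate left 526 genes called (359 higher, 167 lower), and ITP had log2 0.66 with an adjusted p of 0.13. Summed gut markers averaged 443 CPM in ITP-i, 148 CPM in yki3SA and 1010 CPM in control. Because this level goes with the groups, the fit cannot decide whether a lost call follows the gut marker level. With a library left out, calls ranged from 642 to 951, rises from 422 to 592, falls from 220 to 359 and the ITP log2 fold change from 0.57 to 0.81. A fold of at least 2 left 659 genes, 198 of them lower, and did not hold for ITP at log2 0.67. With total-count scaling 71.9% of calls were higher, against 60.6%. DESeq2 called 1573 genes in all, among them 10 falls of ion and water transport genes, 8 of V-ATPase genes and 8 of heat shock and antioxidant genes, against 3, 3 and 1 with edgeR. Deviations from the group means correlated between same-numbered libraries of the 2 groups with r = 0.17, -0.01 and 0.16. Between differently numbered libraries r ran from -0.26 to 0.14. With 3 libraries per group these values cannot decide whether the numbers pair the libraries. The fit with the replicate block called 1137 genes (701 higher, 436 lower). Of the genes the naming rule took, no call reversed in any alternative, and 43 calls ended without at least 1 library. Depth limits genes under about 0.0904 CPM, the level of 3 counts, and 3 libraries per group limit small changes.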

Other observations

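Genes annotated to the cilium formed a further group with rises, picked after their values were seen. By the annotation column of the deposited table, 137 tested genes carry this term, of which 18 rose (13.1%) and 3 fell (2.2%), where 6.37% and 4.14% of all genes did. Their median log2 fold change was 0.16. Pkd2, a polycystin channel gene, was at 41.1, 43.0 and 48.4 CPM in ITP-i and 4.23, 2.63 and 2.98 CPM in control (log2 3.75, adjusted p = 4.7e-05). Its yki3SA libraries lay between the other groups at 15.5, 8.86 and 8.10 CPM. The axonemal dynein gene Dhc62B was at 44.2, 54.2 and 39.2 CPM in ITP-i and 8.88, 9.42 and 11.2 CPM in control (log2 2.22, adjusted p = 4.8e-05). The gene dila, of the ciliary transition zone, was at 23.4, 29.2 and 37.4 CPM in ITP-i and 1.32, 1.503 and 1.78 CPM in control (log2 4.29, adjusted p = 0.00015). IFT54, of intraflagellar transport, was at 13.5, 17.5 and 18.0 CPM in ITP-i and 2.04, 2.31 and 3.07 CPM in control (log2 2.72, adjusted p = 0.002). The groups were separate for all of these, and each call held with any library left out. In the other direction the small GTPase gene dnd was at 17.8, 20.6 and 18.6 CPM in ITP-i and 43.5, 38.6 and 39.8 CPM in control (log2 -1.10, adjusted p = 0.00034).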
